A study of Mus musculus with 384 samples.

Results

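DNA replication genes were followed through 3 sorted populations of mouse mammary cells: progenitors from the embryo, and basal and luminal cells of the adult gland. The list held 38 genes, named one by one, and all 38 were found among the 49585 gene identifiers of the count table. Each well of a 384-well plate received 1 cell, 50 cells or no cell, and its RNA was read by Smart-seq2, a full-length method that primes on the poly(A) tail. Embryonic cells came from the dissected skin of female E14 (embryonic day 14) embryos that carried Lgr5-EGFP-IRES-CreER, a green reporter driven by the Lgr5 gene, and were sorted as CD49f high and Lgr5 high. Adult cells came from glands labelled Rosa-tdTomato and were sorted as CD24+CD29Hi (basal) or CD24+CD29Lo (luminal), and no treatment is named for any of them. In all 3 sorts, cells with CD45, CD31 or CD140a on their surface were excluded, which are markers of blood, vessel and stromal cells. The embryonic gate selects on an Lgr5 reporter in whole skin, so it can hold Lgr5-positive cells from outside the mammary buds. Stage, reporter line, dissociation and sort all differ between embryonic and adult wells and cannot be told apart. The labels give no adult age and no animal or litter for any well, so each gate was treated as 1 sample, no test was made, and all intervals cover counting error only.

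Before a cell divides it copies its genome once. In G1, the origin recognition complex with Cdc6 and Cdt1 loads the ring-shaped MCM2-7 helicase onto origins, and geminin prevents loading a second time. In S phase, Cdc45 and the GINS complex turn that ring into an active helicase, primase and the polymerases copy both strands around the PCNA clamp, ligase seals the fragments and CAF-1 sets nucleosomes on the new DNA. Many of these genes are transcribed late in G1 by E2F factors, so their messenger RNAs are widely used as marks of cycling cells. Embryonic mammary buds grow slowly at first and then sprout, while the epithelium of a resting adult gland divides little.

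E2F motifs are a known feature of replication gene promoters. RefSeq promoter windows (build GRCm38.p6, from 250 bases before to 50 after the transcription start) were found for 32 of the 38. Exact matches to any of 4 E2F-like words, TTTCCCGC, TTTGGCGC, TTTCGCGC and TTTGCCGC, were counted on both strands. Words on opposite strands can overlap. A match lay in the windows of 12 of the 32 replication genes (37.5%), compared with 704 of 27025 genes in all (2.6%). The 12 were Cdc6, Cdt1, Gins3, Lig1, Mcm3, Mcm5, Mcm6, Mcm7, Orc1, Pola1, Pold1 and Rfc3. The word CCAAT, which NF-Y binds, lay in 19 of the 32 (59.4%) and in 41.1% of all genes with a window. Of 22 genes of mitosis listed for comparison, 19 had a window. CCAAT lay in 17 of those 19 (89.5%) and an E2F-like word in 1 (5.26%). A match is only a run of letters and does not show that a factor bound there. The following lines give the 250 bases before the start, 5′ to 3′ on the gene's strand, for Mcm6 (3 matches, of which a pair overlaps), Cdc6 and Orc1 (1 match each), and Rrm2, whose window held none. Capitals mark the E2F-like words.
Mcm6: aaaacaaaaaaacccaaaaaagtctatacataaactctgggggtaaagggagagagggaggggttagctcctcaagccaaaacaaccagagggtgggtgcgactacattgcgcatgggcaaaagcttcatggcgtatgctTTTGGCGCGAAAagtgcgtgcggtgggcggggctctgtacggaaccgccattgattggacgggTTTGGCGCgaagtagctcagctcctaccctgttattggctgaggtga
Cdc6: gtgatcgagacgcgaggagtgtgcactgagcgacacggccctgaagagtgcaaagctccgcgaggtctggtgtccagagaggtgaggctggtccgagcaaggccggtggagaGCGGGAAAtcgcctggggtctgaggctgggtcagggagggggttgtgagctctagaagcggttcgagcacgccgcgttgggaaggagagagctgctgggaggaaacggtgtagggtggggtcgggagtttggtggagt
Orc1: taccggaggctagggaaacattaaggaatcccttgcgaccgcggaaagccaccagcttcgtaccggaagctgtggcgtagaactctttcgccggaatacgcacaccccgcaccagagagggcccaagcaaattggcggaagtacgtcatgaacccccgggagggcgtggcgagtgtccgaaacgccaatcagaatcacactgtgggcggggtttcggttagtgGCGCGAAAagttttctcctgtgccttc
Rrm2: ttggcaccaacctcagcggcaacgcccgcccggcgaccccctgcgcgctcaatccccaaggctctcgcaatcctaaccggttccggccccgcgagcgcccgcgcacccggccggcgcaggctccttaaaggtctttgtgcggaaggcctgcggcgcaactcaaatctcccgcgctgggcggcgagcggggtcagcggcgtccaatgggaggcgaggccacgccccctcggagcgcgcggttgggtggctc
These stretches are chr1:128359706-128359955 on the minus strand for Mcm6, chr11:98907901-98908150 on the plus strand for Cdc6, chr4:108579204-108579453 on the plus strand for Orc1 and chr12:24708004-24708253 on the plus strand for Rrm2. The Mcm6 words span bases -110 to -103, -106 to -99 and -47 to -40, counted back from the start. In Cdc6 the word lies at -138 to -131 and in Orc1 at -27 to -20. The first bases after the RefSeq start used for Mcm6 were not found in a GENCODE M21 transcript of that gene. Those of the other 3 were found within a transcript of their gene, which does not show that a transcript starts there. The whole Cdc6 stretch lies inside the GENCODE gene, which starts at chr11:98907801, so it is upstream of the RefSeq start only. The Orc1 and Rrm2 stretches also run past the GENCODE starts of their genes.

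Of 376 single wells, 347 had 50000 or more gene reads and were used, which was all but 10 embryonic, 10 basal and 9 luminal wells. The well nearest below that limit had 48061 reads and the one nearest above had 52500, both basal. Kept cells reached 1836609 embryonic, 1466484 basal and 1595858 luminal reads. Each well had its own pair of index sequences and no pair was used for more than 1 well, although single indices recur across wells. Wells that received no cell (4 in all) had 34 to 563 reads. Each kept cell was compared with the 3 wells of 50 cells over 10315 genes, and all but 1 embryonic, 10 basal and 3 luminal cells correlated best with their own gate. Of these 10 basal cells, 8 were closest to the luminal well and 2 to the embryonic well. Replication and mitosis genes were not left out of this comparison. The defining keratins followed the labels, with Krt14 at 2193 CPM in basal and 36.6 CPM in luminal cells and Krt8 at 912 and 4694 CPM. Sox11, a gene of the embryonic bud, stood at 1050 CPM in embryonic, 12.1 CPM in basal and 11.7 CPM in luminal cells.

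The embryonic gate also held fibroblast genes and the basal gate endothelial genes. Collagen Col1a1 reached 613 CPM and was read in 57.5% of embryonic cells, and Col1a2 reached 1490 CPM. Other genes of the fibroblast list were not highest there: Postn stood at 56.2 CPM in embryonic and 1475 CPM in basal cells, Dcn at 316 and 924 CPM, and Pdgfra at 54.8 and 58.1 CPM. At least 3 of 8 fibroblast markers were read in 65 embryonic cells. Those cells had a median of 8 replication genes each (2 to 29), compared with 11 (1 to 33) in the other 62. Across embryonic cells, the number of fibroblast markers and of replication genes had Spearman's rho of -0.07, given as a description over cells of 1 plate. Endothelial Kdr stood at 85.8 CPM and Emcn at 86.04 CPM in basal cells, read in 8.33% and 4.63% of those cells at equal depth. Vwf of the endothelial list went the other way, at 8.60 CPM in basal and 19.9 CPM in luminal cells. Of the immune list, Ptprc, which codes for CD45, was at 0 or 0.0733 CPM in every gate. Cd68 of that list stood at 22.5, 10.4 and 16.4 CPM in embryonic, basal and luminal cells.

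Replication genes were far more abundant in the embryonic gate than in either adult gate. For each gate, the reads of a gene were summed over kept cells and divided by the summed reads of all genes, giving CPM, the share of a gene scaled to a fixed total. A gene was counted as measured with at least 5 CPM in either gate and as higher or lower when the ratio, with 1 CPM added to both sides, reached 2-fold. Against basal cells, 31 of 37 measured members were at least 2-fold higher in the embryo and 0 were lower, where 33.8% of all measured genes were higher and 19.4% lower. Their median log2 ratio was 3.27, compared with 0.38 over all genes. Against luminal cells, 34 of 37 were higher and 0 lower, where 39.3% and 17.6% of all genes were, and the median was 3.28 compared with 0.58. Summed over all 38, the members took 3412 CPM in embryonic, 750 CPM in basal and 568.5 CPM in luminal cells. The counts without the wells that matched another gate were 30 of 37 against basal and 34 of 37 against luminal cells. The matching itself did not leave out replication genes.

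The choice of scaling moved the members and all genes together. With TMM scaling the median of all genes shifted by -0.34 and -0.51 on the log2 scale against basal and luminal cells, and higher genes made up 52.1% and 54.4% of all calls in place of 63.5% and 69.1%. With the spike-in reads as the total it shifted by 1.37 and 0.55, and higher genes made up 89.8% and 80.6% of calls. The members' medians were 2.96 and 2.83 with TMM and 4.53 and 3.79 with spike-ins, above the median of all genes in each case.

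**Figure D1:**
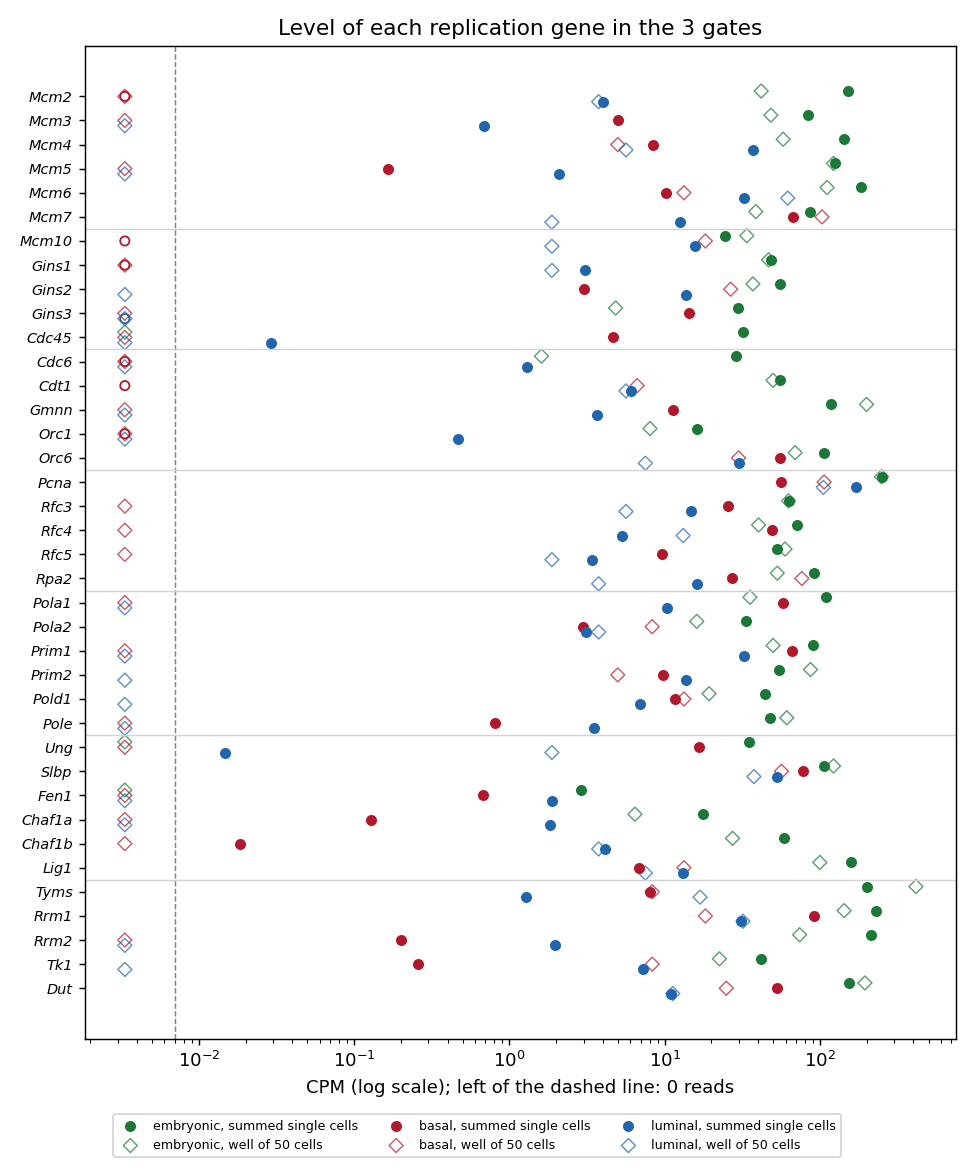
Level of each of the 38 replication genes in CPM (log axis) in the summed single cells of the 3 gates, with the well of 50 cells of the same gate beside it. Embryonic levels run from 2.88 CPM (Fen1) to 249.2 CPM (Pcna), and 6 members had no read in basal single cells.

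Of the 5 licensing genes, 3 had no read in basal cells. Cdt1, which brings the MCM ring to the origin, stood at 55.7 CPM in embryonic, 0 in basal and 6.06 CPM in luminal cells. Cdc6, the ATPase that loads the ring with it, stood at 28.8, 0 and 1.30 CPM, and Orc1, the largest origin recognition subunit, at 16.1, 0 and 0.468 CPM. Against the level that 3 reads would give in the basal gate, Cdt1 was at least 1012-fold, Cdc6 at least 523-fold and Orc1 at least 292-fold higher in the embryo. In the wells of 50 cells the Cdt1 difference was far smaller, with 31 embryonic and 4 basal reads and a fold of 7.503 (2.65 to 29.3). Orc1 and Cdc6 also had 0 basal reads there, but only 5 and 1 embryonic reads, too few to show a difference. The single luminal cell with Orc1 held all of that gate's Orc1 reads. Gmnn, which codes for geminin, was the licensing gene with the highest embryonic level per kb of exon, at 80.5 CPM per kb, or 117.9 CPM, with 11.3 CPM in basal and 3.64 CPM in luminal cells. Its fold was 10.4 (9.59 to 11.3) over basal and 32.4 (28.5 to 36.8) over luminal cells. In basal cells, 90.9% of the Gmnn reads came from 1 cell, so the basal level without that cell was 1.03 CPM. Orc6, a further origin recognition subunit, was spread more evenly, at 106.3 CPM in embryonic, 55.6 CPM in basal and 30.0 CPM in luminal cells, and was 1.91-fold (1.83 to 1.99) higher in the embryo than in basal cells.

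The 6 subunits of the MCM2-7 ring work as 1 complex but differed in their adult levels. Mcm2 was read in 54.3% of embryonic cells (69 cells) at equal depth, with a median cell at 18.7 CPM and the highest at 1970 CPM, and its gate level was 151 CPM. In basal cells it had 0 reads at any depth, and in luminal cells it stood at 3.99 CPM and was read in 5 cells (4.46%). Against the level that 3 reads would give in the basal gate, its embryonic level was at least 2746-fold higher. Its fold over luminal cells was 37.8 (33.5 to 42.8). In the wells of 50 cells Mcm2 had 26 embryonic and 0 basal reads, which bounds the fold at only 8.39 or more. Mcm5 stood at 125.1, 0.165 and 2.08 CPM in embryonic, basal and luminal cells, and Mcm3 at 83.8, 4.97 and 0.688 CPM. Mcm6 and Mcm4 had their higher adult level in luminal cells, with 183, 10.2 and 32.2 CPM for Mcm6 and 143.5, 8.43 and 36.8 CPM for Mcm4. Mcm7 was the exception against basal cells. It stood at 86.7 CPM in embryonic and 66.7 CPM in basal cells, a fold of 1.30 (1.25 to 1.35), and at 12.5 CPM in luminal cells. In the wells of 50 cells its direction over basal cells turned, with 24 embryonic and 62 basal reads and a fold of 0.375 (0.224 to 0.609). Basal Mcm7 was read in 20 cells (18.5%), and 22.4% of its reads came from the highest cell. Of the merged exon bases of Mcm7, 12.6% also lie in exons of other genes.

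Scaled by exon length, the embryonic ring subunits lay close together, from 19.6 CPM per kb (Mcm7) to 40.0 CPM per kb (Mcm4). Reads for all 6 were found in 19 embryonic cells (14.96%) at 50000 reads, and 16 cells had none of the 6. No basal cell had more than 2 of the 6 and no luminal cell more than 4.

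All 5 genes that activate the ring were at least 2-fold higher in the embryo than in basal cells, and 4 of the 5 than in luminal cells. Mcm10, which helps to start the active helicase, stood at 24.6 CPM in embryonic, 0 in basal and 15.6 CPM in luminal cells, and 1 embryonic cell carried 29.6% of its embryonic reads. It was at least 447-fold higher in embryonic than in basal cells but its fold over luminal cells was 1.58 (1.46 to 1.70). In the wells of 50 cells Mcm10 stood at 33.8 CPM in the embryonic and 18.3 CPM in the basal well, a fold of 1.85 (0.852 to 4.24). Of the GINS subunits, Gins1 stood at 48.3, 0 and 3.06 CPM and Gins2 at 55.6, 3.01 and 13.7 CPM in embryonic, basal and luminal cells. Exons of Gse1 cover most of Gins2, with 67.3% of the Gins2 exon bases shared. Gins3 stood at 29.8 CPM in embryonic and 14.2 CPM in basal cells, the latter all from 1 cell, and had 0 luminal reads, for at least 678-fold. Cdc45 stood at 32.1 CPM in embryonic and 4.67 CPM in basal cells, again all from 1 cell, and at 0.0293 CPM in luminal cells.

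Of the 6 polymerase and primase genes, 4 were at least 2-fold higher in the embryo than in basal cells, and all 6 than in luminal cells. Pola1, the catalytic subunit of polymerase alpha, stood at 109.4 CPM in embryonic, 57.8 CPM in basal and 10.4 CPM in luminal cells, a fold of 1.89 (1.82 to 1.97) over basal and 10.5 (9.75 to 11.4) over luminal cells. Its partner Pola2 stood at 33.3, 2.97 and 3.13 CPM. Prim1, the catalytic primase subunit, stood at 89.8 CPM in embryonic and 65.7 CPM in basal cells, and 99.3% of the basal reads came from 1 cell. Without the highest cell of each gate, Prim1 was at 83.05 CPM in embryonic and 0.448 CPM in basal cells. Prim2, the regulatory primase subunit, stood at 54.5, 9.72 and 13.7 CPM. Pold1, the catalytic subunit of polymerase delta, stood at 43.99, 11.6 and 6.95 CPM, and Pole, that of polymerase epsilon, at 47.5, 0.807 and 3.51 CPM.

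Pcna, the sliding clamp, had the highest embryonic level per kb of exon (103.8 CPM per kb), and it was also the most widely read member in both adult gates. It stood at 249.2 CPM in embryonic, 55.9 CPM in basal and 170.0 CPM in luminal cells. It was read in 64.6% of embryonic, 31.5% of basal and 58.04% of luminal cells at equal depth, with the median cell at 41.4, 3.11 and 32.5 CPM and the highest at 1430, 1312 and 1662 CPM. The embryonic level was 4.46-fold (4.29 to 4.63) that of basal and 1.47-fold (1.433 to 1.499) that of luminal cells. Luminal cells with Pcna had no more of the other members than those without it. The 65 luminal cells with Pcna and the 47 without it both had a median of 2 other members. The 34 basal cells with it and the 74 without it also had a median of 2. In the embryo the medians were 13 in 82 cells with Pcna and 6 in 45 without. The Pcna-ps2 pseudogene carried 62.4, 10.5 and 42.8 CPM in embryonic, basal and luminal cells, so reads may be split between the gene and this copy. The clamp loader subunits Rfc3, Rfc4 and Rfc5 stood at 63.5, 71.2 and 52.9 CPM in embryonic cells. Rfc4 was at 48.7 CPM in basal cells, of which 44.5% lay in 1 cell, for a fold of 1.46 (1.40 to 1.53), and at 5.33 CPM in luminal cells. Rfc3 was at 25.7 CPM in basal and 14.8 CPM in luminal cells. Rfc5 stood at 9.57 CPM in basal cells, of which 97.9% lay in 1 cell, and at 3.39 CPM in luminal cells. Rpa2, part of the complex that coats single-stranded DNA, stood at 91.5, 26.97 and 16.1 CPM.

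All 5 genes of deoxynucleotide supply were at least 2-fold higher in the embryo than in both adult gates. Rrm2, the S-phase subunit of ribonucleotide reductase, stood at 214 CPM in embryonic cells and was read in 45 of them at equal depth, with the highest cell at 1709 CPM. It stood at 0.202 CPM in basal and 1.96 CPM in luminal cells, and in each adult gate over 90% of that came from 1 cell. The fold was 1063 (594 to 2129) over basal and 109.3 (92.3 to 130.6) over luminal cells. Rrm1, the other subunit, is less bound to S phase and was read in 24.1% of basal and 10.7% of luminal cells. Its levels were 229.8, 91.96 and 31.2 CPM in embryonic, basal and luminal cells. Of the basal Rrm1 reads, 42.5% came from 1 cell, and without that cell the basal level was 53.1 CPM. In the wells of 50 cells Rrm1 stood at 18.3 CPM in the basal and 31.9 CPM in the luminal well. Tyms, which makes thymidylate, stood at 199.7, 8.01 and 1.27 CPM. Tk1, the thymidine kinase of cycling cells, stood at 41.95, 0.257 and 7.21 CPM. Dut, which removes dUTP, stood at 153, 53.2 and 10.99 CPM.

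Among the genes that finish the strands, Lig1, the ligase of replication, stood at 158 CPM in embryonic, 6.88 CPM in basal and 13.1 CPM in luminal cells. The CAF-1 subunit Chaf1b stood at 58.9, 0.0183 and 4.14 CPM, where the basal value is 1 read. Chaf1a, the larger CAF-1 subunit, stood at 17.6, 0.128 and 1.83 CPM, and 52.5% of its exon bases lie in exons of Ubxn6. Ung, which removes uracil from DNA, stood at 34.9, 16.7 and 0.0146 CPM, and 1 cell gave 89.8% of the basal reads. Slbp, which binds the stem-loop of histone messenger RNA, was read in all 3 gates, at 105.6, 77.3 and 53.1 CPM, for 1.37-fold (1.32 to 1.42) over basal and 1.99-fold (1.92 to 2.07) over luminal cells. Fen1, the flap nuclease, was the member that did not reach the measured level, at 2.88, 0.678 and 1.89 CPM. Of its exon bases, 84.2% lie in exons of other genes, and how the authors' counting treated such bases is not given in the sources used here.

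Adult levels rested on few cells. The cell with the most reads of a member held a median of 12.2% of that member's reads in the embryonic gate (6.34% to 29.6%), 62.7% in the basal gate and 41.3% in the luminal gate. In 19 of 32 members with basal reads, and in 14 of 37 with luminal reads, 1 cell held 50% or more. In the embryo 0 of 38 did so. The same shares were not computed over all genes, so whether they are particular to the members was not tested. Leaving out the highest cell of every gene in each gate, which was added after the data were seen, gave 35 members at least 2-fold higher in the embryo than in basal cells and 35 in the comparison with luminal cells. The members' median ratio over basal cells then rose to a log2 value of 4.51, while the median of all genes shifted by 0.34 and higher genes made up 73.8% of calls.

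**Figure D2:**
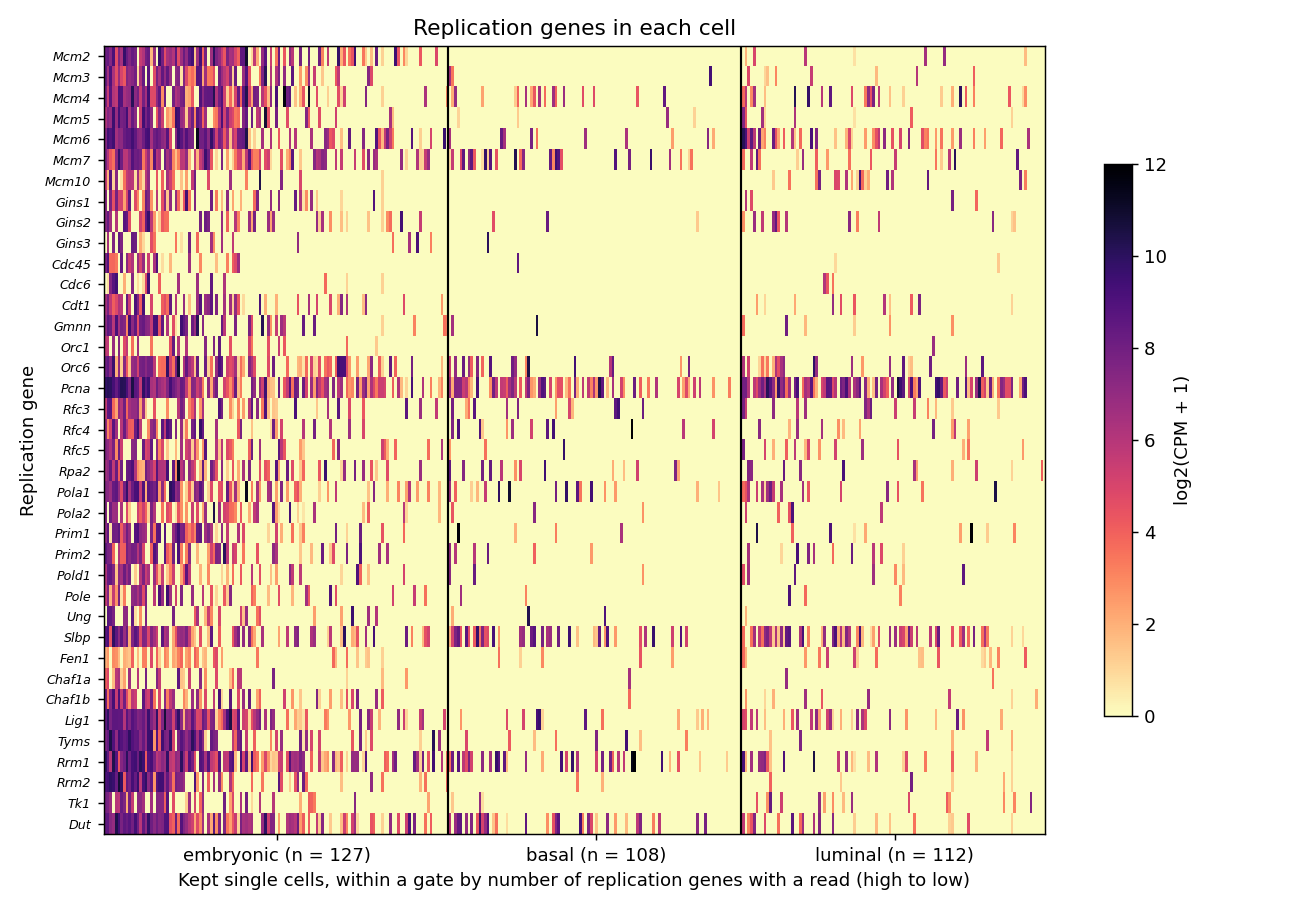
Level of each replication gene (rows) in each kept single cell (columns, ordered within each gate by the number of members read), on a log colour scale of CPM. The embryonic cells form a gradient from 1 to 33 members read at 50000 reads, and the adult cells show scattered single genes.

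Counted cell by cell, embryonic cells formed a broad range and adult cells stayed near the bottom of it. To put cells of unequal depth on 1 scale, each was thinned at random to 50000 reads, and a member counted when it had a read. Embryonic cells had a median of 10 of the 38 members (quartiles 5 and 18, range 1 to 33), basal cells 2 (quartiles 1 and 3, range 0 to 10) and luminal cells 3 (quartiles 2 and 4, range 0 to 12). At least 10 members were read in 64 embryonic cells, or 50.4% (95% Clopper-Pearson interval 41.4% to 59.4%). The same held for 1 basal cell, or 0.926% (0.0234% to 5.05%), and for 2 luminal cells, or 1.79% (0.217% to 6.30%). At least 20 members were read in 29 embryonic cells (22.8%) and in 0 adult cells, where a count of 0, read as at most 3 cells in place of the Clopper-Pearson limit, allows shares of up to 2.78% of basal and 2.68% of luminal cells. Without thinning the medians were 14, 3 and 4 members. Embryonic cells also had more genes in all, with medians of 3928, 2023 and 2578 genes at 50000 reads. Per 100 genes read, the median cell had 0.246 members in the embryo, 0.0938 in basal and 0.103 in luminal cells.

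**Figure D3:**
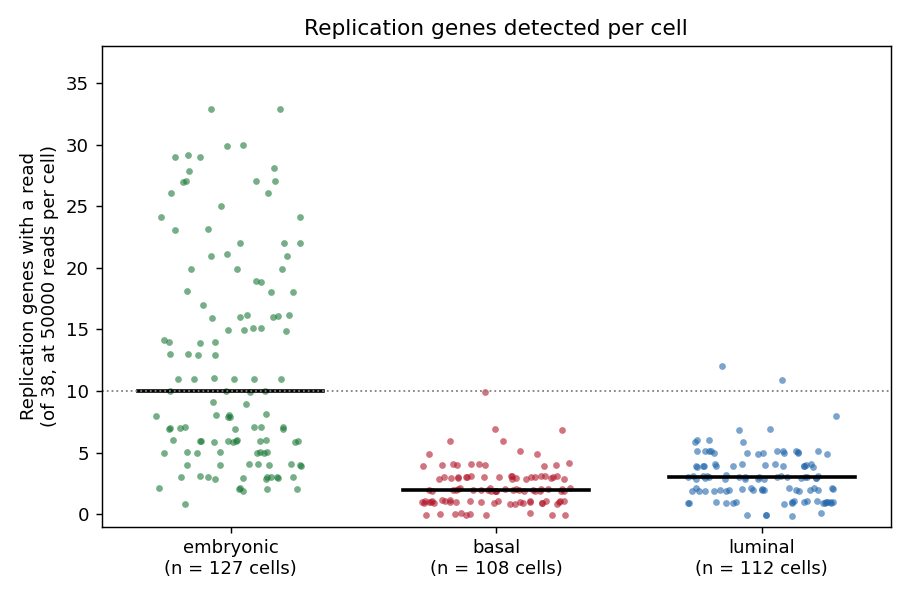
Number of the 38 replication genes with a read in each kept cell at 50000 reads, by gate, with 1 point per cell. The embryonic cells spread from 1 to 33 around a median of 10, and the highest adult cells reach 10 (basal) and 12 (luminal).

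Some of the few adult cells at the top matched another gate. The luminal cell with 12 members also had 19 of the 22 mitosis genes, Top2a at 858 CPM, and correlated best with the embryonic well. It had Krt14 at 1040 CPM, Krt8 at 262 CPM and Lgr5 at 401.5 CPM, and 0 CPM of Mcm2 and Rrm2. The luminal cell with 11 members had 1 mitosis gene and was also closest to the embryonic well. Among basal cells, the one with 10 members had 0 mitosis genes and matched its own gate, with Acta2, the smooth muscle actin of myoepithelium, at 12790 CPM. A basal cell with 7 members had 17 mitosis genes and one with 3 members had 10, and both were closest to the embryonic well. Both carried the basal marker Acta2, at 14540 and 32580 CPM, which stood at 24.5 CPM in the embryonic gate. With only the cells that matched their own gate, no luminal cell reached 10 members. That match did not leave out replication or mitosis genes, so it is not independent of the members counted.

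Across embryonic cells, replication genes and mitosis genes were read in overlapping but not identical cells. The mitosis genes, among them Top2a, Mki67, Cenpf and Ube2c, mark G2 and M phase. The number of members and of mitosis genes per cell had Spearman's rho of 0.64 and Pearson's r of 0.58, as a description over cells that share 1 plate. Both numbers also moved with the number of all genes read in a cell, with rho of 0.61 for members and 0.46 for mitosis genes, and that part in the relation was not tested. Within the 64 cells with more genes rho was 0.52, and within the 63 cells with fewer it was 0.48. At least 10 members and at least 5 mitosis genes were read together in 33 cells (25.98%). There were 31 cells (24.4%) past the first limit only, 8 (6.30%) past the second only and 55 (43.3%) past neither. The 41 cells with at least 5 mitosis genes had a median of 21 members (3 to 33), and the other 86 a median of 6 (1 to 28). The number of members had rho of 0.05 with the level of Lgr5, the gene of the sort.

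**Figure D4:**
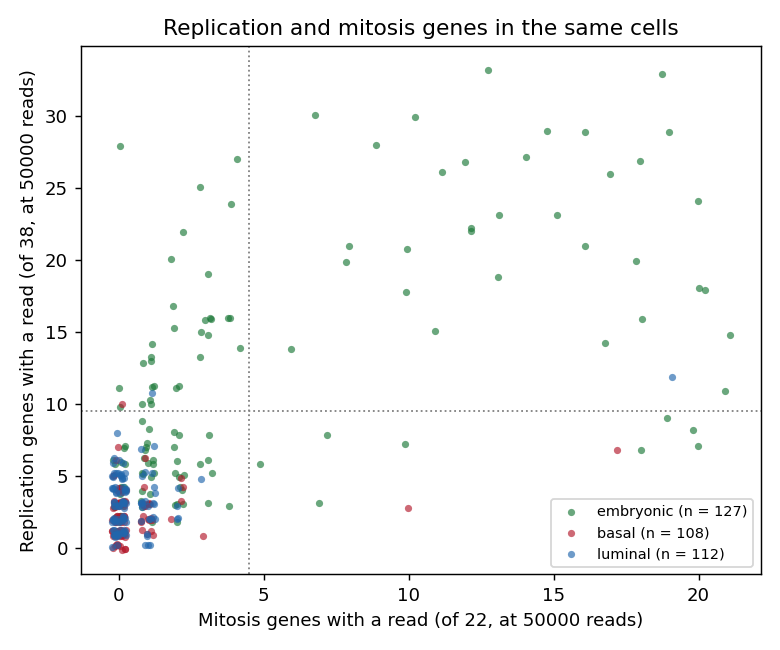
Number of replication genes (of 38) against number of mitosis genes (of 22) with a read in each kept cell at 50000 reads, coloured by gate. Of the embryonic cells, 33 lie past both limits of 10 and 5, and 31 have many replication genes but few mitosis genes.

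Members differed in how closely they followed the mitosis genes. Each of the 38 was read in a larger share of the 41 cells with at least 5 mitosis genes than of the other 86, by a median of 27.7 percentage points. The 41 cells also had more genes read in all, with a median of 4423 compared with 3757 in the other 86. The same difference was not computed over all genes, so how much of it is particular to the members was not tested. In points, Tyms differed most, at 80.5% compared with 25.6%, or 54.9 points. A gap in points is limited by how often a gene is read at all. Members read in fewer cells included Tk1 at 51.2% and 10.5%, Mcm10 at 36.6% and 6.98% and Cdc45 at 31.7% and 5.81%. Rrm2 was read in 68.3% and 19.8%, Gmnn in 63.4% and 17.4%, Dut in 82.9% and 38.4%, Rrm1 in 92.7% and 50% and Pola1 in 63.4% and 20.9%. Ung differed least, at 14.6% and 13.95%, followed by Gins2 at 24.4% and 20.9%, and Cdc6 at 12.2% and 8.14%. The Cdc6 shares rest on 5 and 7 cells. The other licensing genes Cdt1 (43.9% and 20.9%) and Orc1 (26.8% and 6.98%) differed more.

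**Figure D5:**
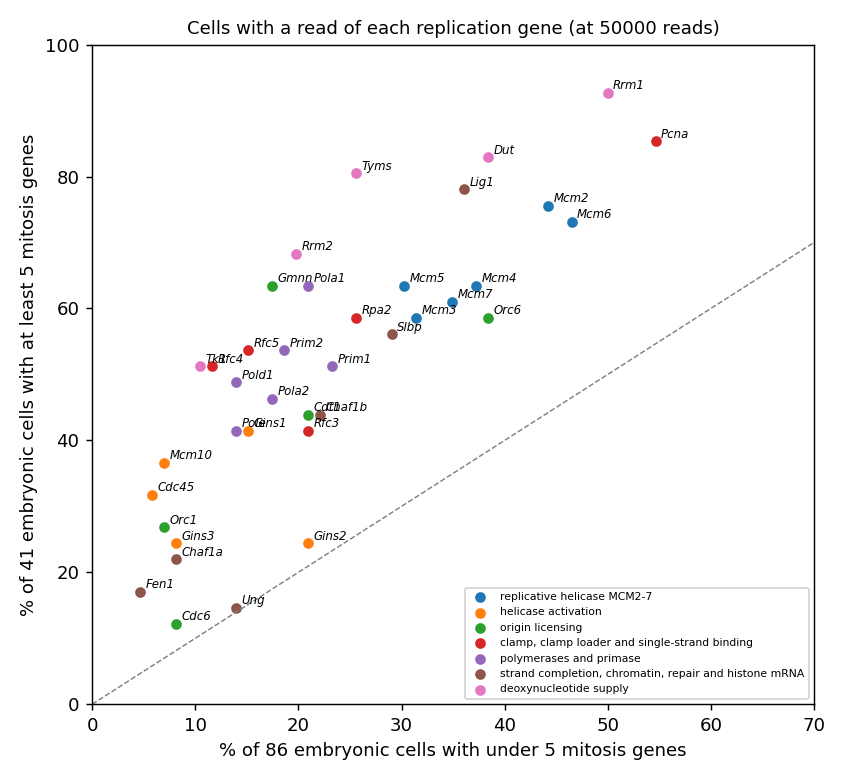
Percent of embryonic cells with a read of each replication gene at 50000 reads, in the 86 cells with under 5 mitosis genes (x axis) and the 41 cells with at least 5 (y axis). All 38 genes lie above the line of equal shares, with Tyms farthest from it and Ung closest. The 41 cells also had more genes read in all.

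Members tended to be read in the same embryonic cells. Across embryonic cells at equal depth, the level of each member was compared with the number of other members read in the same cell, and rho ran from 0.27 (Gins3) to 0.71 (Lig1) with a median of 0.52. Of 703 pairs of members, 702 had a positive rho, with a median of 0.32 and the highest value, 0.61, for Pola1 with Lig1. The share of positive pairs among other genes was not computed. The number of members also had rho of 0.61 with the number of all genes read in a cell, and that part in the pairs was not tested. Among 5645 genes read in at least 25% of embryonic cells, the median rho with the number of members was 0.15, and 15 of the first 50 were themselves members. A member's own read adds to that number, so its rank is partly set by the count. Outside the list, the 10 genes most like it were Tuba1b (rho 0.74), Hmgb2 (0.73), Ncapg2 (0.71), Smc2 (0.71), Pclaf (0.70), Hist1h2ae (0.67), Cenph (0.66), Clspn (0.65), Pcna-ps2 (0.64) and Smc4 (0.63). Tuba1b codes for a tubulin, Ncapg2, Smc2 and Smc4 for condensin subunits, Pclaf for a partner of the PCNA clamp and Clspn for the checkpoint adaptor claspin.

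The wells of 50 cells were separate libraries from other cells, and they gave the same direction for most embryonic differences. In such a pool, fewer cycling cells and less RNA per cell cannot be told apart. Reads of 35 members were found in the embryonic well, of 18 in the basal and of 21 in the luminal well, and the members summed to 2708, 542 and 334 CPM. Against the basal well, 27 of 33 measured members were at least 2-fold higher in the embryonic well and 1, Mcm7, was lower, where 37.6% and 30.5% of all genes were. Against the luminal well, 32 of 33 were higher and 0 lower, where 44.1% and 22.2% of all genes were. Of the 31 members called against basal single cells, 28 had the same direction in these wells and 1, Rpa2, the opposite one, at 53.1 CPM in the embryonic and 76.4 CPM in the basal well. Of the 34 called against luminal cells, 32 had the same direction and 1, Ung, the opposite one, with 0 CPM in the embryonic and 1.88 CPM in the luminal well. How often all genes kept their direction was not computed.

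Basal and luminal cells differed in single members in both directions, but these differences seldom held in the wells of 50 cells. Of 25 members measured in either adult gate, 10 were at least 2-fold higher in basal and 7 in luminal cells, where 28.3% and 21.3% of all genes were, and the median log2 ratio was 0.76 compared with 0.14 over all genes. With spike-in reads as the total, higher genes made up 26.8% of all calls in place of 57.03%, and the members' median was -0.06. Of the 17 called members, 4 had the same direction in the wells of 50 cells and 10 the opposite direction. The other 3, Gins3, Gmnn and Pola1, had 0 reads in both wells and so could not be compared. Some opposite directions rest on few reads, such as Cdt1 with 4 basal and 3 luminal reads. This agreement was not computed over all genes, so whether it is particular to the members was not tested. Mcm7 was among the 4, at 66.7 CPM in basal and 12.5 CPM in luminal single cells, with 62 reads in the basal and 1 read in the luminal well. Dut, at 53.2 and 10.99 CPM, stood at 24.9 and 11.3 CPM in the wells. Mcm6 was higher in luminal cells on both readouts, at 10.2 and 32.2 CPM in single cells and 13.3 and 61.9 CPM in the wells. Pcna, 3.04-fold higher in luminal single cells, stood at 106.3 CPM in the basal and 105.1 CPM in the luminal well.

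Other genes of the same process were counted from lists that do not overlap with the 38. Of 30 measured genes of the replisome and origins, 21 were at least 2-fold higher in the embryo than in basal cells and 2 lower, with the same counts against luminal cells. Over all measured genes, 33.8% were higher and 19.4% lower against basal cells, and 39.3% and 17.6% against luminal cells. Topbp1, which joins origin firing to the checkpoint, stood at 242, 48.8 and 24.5 CPM in embryonic, basal and luminal cells, and Dtl, which directs the destruction of Cdt1, at 221, 10.0 and 0.395 CPM. The 2 that were lower in the embryo in both comparisons were Mcm9, a helicase of repair, at 7.05, 25.1 and 19.4 CPM, and Pold4, the small subunit of polymerase delta, at 4.66, 26.4 and 39.9 CPM. In the wells of 50 cells Mcm9 was not lower in the embryo, at 38.6, 0 and 30.0 CPM, and Pold4, at 14.5, 51.5 and 28.1 CPM, was lower by 2-fold only against basal cells. Of 9 other genes of deoxynucleotide metabolism, 4 were higher and 2 lower against basal, and 4 higher and 1 lower against luminal cells, shares near those of all genes (33.8% and 19.4%, and 39.3% and 17.6%). Samhd1, which breaks deoxynucleotides down, was lower in the embryo in both, at 20.7, 92.2 and 97.8 CPM. Dguok, the mitochondrial deoxyguanosine kinase, was lower against basal cells, at 30.5 and 64.3 CPM.

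The regulators of the step into S phase were also mostly higher. For the lists below, the shares of all measured genes were 33.8% higher and 19.4% lower against basal cells, and 39.3% and 17.6% against luminal cells. Of 18 E2F, RB and DREAM genes, 11 were higher and 0 lower against basal, and 12 higher and 1 lower against luminal cells. The 1 lower was Rb1, the retinoblastoma protein that restrains E2F, at 30.0 CPM in embryonic, 31.3 CPM in basal and 237 CPM in luminal cells. All 8 genes of the G1/S kinases were higher against basal cells and 7 of 8 against luminal cells, with Cdk4 at 845, 185 and 141 CPM. Of 14 genes of replication stress and repair, 11 and 13 were higher and 0 lower, with the mismatch repair gene Msh6 at 87.04, 17.6 and 14.3 CPM in embryonic, basal and luminal cells. Of 22 mitosis genes, 19 and 22 were higher and 0 lower, with Top2a at 320.4, 1.28 and 2.91 CPM and Mki67 at 199, 31.5 and 1.11 CPM.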

How the data were processed

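The authors deposited 1 table of read counts per gene and well for 384 wells, plus 92 spike-in rows. Per the labels' protocols, sorted cells were lysed in plates and amplified for 24 cycles after oligo-dT priming, and libraries were made with Nextera XT. The submitters' processing notes name cutadapt 1.13, STAR 2.5.2b, HTSeq 0.6.0 and the genome GRCm38. The sources used here do not give the annotation, overlap rule and strandedness of the counting. Genes that overlap on either strand may therefore share reads. PCR reads carried no molecular identifiers.

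From the deposited counts, summed CPM, ratios and exact conditional Poisson intervals (95%) were computed with Python 3.11.15, numpy 2.4.6, pandas 2.3.3 and scipy 1.17.1. TMM factors came from edgeR 4.0.16, used for scaling only. Folds are ratios of CPM without the added 1 CPM. Against 0 reads, a fold is a lower bound at 3 reads over the gate. Such a bound covers counting error only, since 1 cell can hold many reads of a gene. Symbols, coordinates and exon lengths came from GENCODE M21, which matched 49326 identifiers and left 259 unmatched. Spike-ins entered no gene total. No doublet caller was run. A well whose labels name 2 gates was left out. The members and lists were chosen with earlier results of these data known. Named genes were all members, up to 4 of highest level per other list, those going against a list, the 10 most like the members and the gate keratins. Alternatives covered scaling, filters, prior, detection, depth, plate rows and wells of 50 cells. The calculations were tested on simulated data.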

Additional observations from a re-analysis of the deposited data

Results flagged for a closer look

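Among the 4 wells without a cell, 1 well held 1 read on a replication gene and the other 3 held 0. A single read among zeros is always marked by the gap rule used, and that well also had the most reads on genes, 563 compared with 34 to 158, so nothing is read from it. For measured values, chance flags about 1 in 20 groups.

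The well whose title names the luminal gate and whose sort label names the embryonic gate belonged to no group. It had 774060 reads and 4 of the 38 members at 50000 reads, with 1 mitosis gene, Pcna at 327 CPM and Mcm2 at 0 CPM.

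Wells under 50000 reads entered no comparison, and reads on replication genes were found in some of them. The 10 embryonic wells held 517 reads on members, with a median of 4.5 members each (0 to 9). The 10 basal wells held 7 reads, with a median of 0 members (0 to 2), and the 9 luminal wells held 75 reads (0 to 4 members). These wells reached 40097, 48061 and 47134 reads in the 3 gates, so their counts were not made at equal depth.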

How the results depend on the processing

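The counts of members at least 2-fold higher in the embryo ranged from 27 to 37 against basal and from 32 to 37 against luminal cells over all alternatives run, each within 1.5 times the reported 31 and 34. The count lower than in basal cells was 1 in place of 0 in the wells of 50 cells and in plate rows A to F, where only 8 embryonic cells lie. In those rows higher genes made up 48.8% of all calls against basal cells and 57.3% against luminal cells. Median-of-ratios scaling gave 50.5% and 52.7%.

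Between the adult gates, the count higher in basal cells was 6 with spike-in reads as the total and 5 without the highest cell of each gene, in place of 10. The count lower was 3 in the wells of 50 cells and 15 with no minimum level, in place of 7.

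The share of embryonic cells with at least 10 members was 31.5% at 5 reads for detection, 16.5% at 10 reads and 66.9% without thinning, and 79.5% and 36.2% of cells had at least 5 and 15 members. Basal shares were 0%, 0%, 7.41% and 0% at 5 reads, 10 reads, 5 members and 15 members. Luminal shares were 0%, 0%, 22.3% and 0%, and 0% with own-gate matches only. Matching did not leave out replication genes, so it is not independent of this count. Members and mitosis genes had rho of 0.53 at 5 reads and 0.50 with summed CPM, in place of 0.64.

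Among members at least 2-fold apart in the single cells, log2 ratios changed sign in the wells of 50 cells for Rpa2 over basal cells (-0.52), for Ung over luminal cells (-1.52) and, basal over luminal, for Mcm10 (2.74), Pcna (0.02), Tyms (-0.94), Rrm1 (-0.77), Gins2 (4.79), Cdt1 (0.21), Ung (-1.52), Rfc4 (-3.82), Rfc5 (-1.52) and Tk1 (3.22). They did so in rows A to F for Gins2 (-0.57) and Pold1 (-0.53) over basal cells, and without the highest cell for Rfc5 (-1.66), basal over luminal. Members within 2-fold are not in these lists, and some of them changed sign too, such as Mcm7 over basal cells in the wells of 50 cells and Prim1 and Pold1, basal over luminal, without the highest cell. In the wells of 50 cells, the values of -1.52 for Ung and Rfc5 each rest on 1 luminal read against 0 reads. The cause of these changes was not tested. No paired analysis was possible because the labels give no replicate numbers and no test was made. Gates lie in blocks of plate rows, and row and gate cannot be told apart. A gene without a read in a cell at 50000 reads was not detected in that random draw, which does not show that the cell lacked it.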
